A study of Mus musculus with 47 samples.

Results

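Histone genes were followed through mouse dendritic cell (DC) development as 77 of the 21000 genes counted in each RNA sequencing library. They were taken by symbol, as all genes named for the histones H1, H2A, H2B, H3 or H4 under the current or the older nomenclature, without pseudogene symbols. By class, 10 encode H1, 21 encode H2A, 17 encode H2B, 16 encode H3 and 13 encode H4. Of the 77, 62 are replication-dependent genes, 8 are replacement variants, 6 are germline variants and 1 is H3f3c, a processed copy of the H3.3 gene H3f3a. The replication-dependent genes lie mainly on chromosome 13, with 50 genes, and on chromosome 3, with 10.

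The 47 libraries fall into 17 groups, each made from about 1500 to 10000 cells, per the labels' protocols. Wild type (WT) primary cells were the monocyte-DC progenitor (MDP) and the type 1 conventional DC precursor (pre-cDC1) from bone marrow and pre-cDC1 from spleen, with 3 libraries each, and bone marrow common DC progenitors (CDP) and splenic cDC1 with 1 each. WT bone marrow cultured with the cytokine Flt3L gave MDP, CDP, pre-cDC1 and cDC2 with 3 libraries each, and cDC1 and pre-cDC2, which stand on replicate 3 because in replicates 1 and 2 the titles give one cell type and the file names the other. Cultured pre-cDC1 also came from bone marrow lacking the +32 kb enhancer of the transcription factor gene Irf8 (d+32), or heterozygous for loss of the +32 kb (d+32het) or the +56 kb enhancer (d+56het), with 3 libraries each. In a rescue experiment with 3 libraries per group, cDC1 grown from lineage-negative d+56 or d+32 cells carried retroviral IRF8, and WT cDC1 carried the MSCV retrovirus. The strain and age of the mice are not given in the labels, and nothing ties libraries to animals. The design text speaks of biological duplicates although most groups hold 3 libraries, so p-values measure the spread between libraries.

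Replication-dependent histone genes supply the histones that package new DNA, and they are transcribed mainly in S phase. Their mRNAs usually end in a short stem-loop, which the stem-loop binding protein SLBP recognises, in place of a poly(A) tail. Replacement variants such as those of H2az1, H2az2, H3f3a and H3f3b are made through the cell cycle from mostly polyadenylated mRNAs and are exchanged into chromatin outside replication. The SMART-Seq HT kit used here starts cDNA synthesis at poly(A) tails, so mRNA that ends in the stem-loop is captured poorly, and how much of each histone mRNA carried a tail was not measured.

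The stem-loop usual in replication-dependent genes was read from the GENCODE GRCm38 transcripts. Examples from each class are shown, with the stem-loop in capitals.
H1f4: ccaaaGGCTCTTTTCAGAGCCaccca
H2ac23: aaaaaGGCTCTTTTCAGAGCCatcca
H2ac18: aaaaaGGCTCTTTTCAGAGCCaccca
H2bc6: ccaaaGGCTCTTTTCAGAGCCaccca
H3c2: ccaaaGGCTCTTTTCAGAGCCaccca
H4c3: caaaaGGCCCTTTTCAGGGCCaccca
H2ax: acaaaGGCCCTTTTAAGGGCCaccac
H1f4, H2ac23, H2ac18, H2bc6 and H3c2 share all 16 bases of the stem-loop, while H4c3 and H2ax differ from them within it. The loop lies 40 bases after the coding end in H1f4, 38 in H2ac23, 58 in H2ac18, 29 in H2bc6 and H3c2, and 33 in H4c3. A stem-loop was found in an annotated transcript of 44 of the 62 replication-dependent genes and of 2 of the other 15, the germline gene H1f6 and H2ax. A gene whose annotated transcripts end before the loop, or whose loop departs from the 16-base pattern searched, counts as without. H2ax encodes the variant that is phosphorylated at DNA breaks, and its stem-loop lies 46 bases after the coding end.

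Many members are near-identical copies, which decides how their counts can be read. Of the 77, 54 had more than 50% of their 50-base coding words in another gene, and 11 had none. The following 60 coding bases (positions 121 to 180 from the start codon) show the H2A copies, with capitals where a base differs from H2ac23.
H2ac23: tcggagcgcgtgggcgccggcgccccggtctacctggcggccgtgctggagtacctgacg
H2ac24: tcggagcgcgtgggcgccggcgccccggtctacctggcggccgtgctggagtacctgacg
H2ac7: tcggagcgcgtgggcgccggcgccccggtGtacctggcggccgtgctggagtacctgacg
H2ac18: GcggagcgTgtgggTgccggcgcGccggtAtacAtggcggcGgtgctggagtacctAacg
H2ac23 (chr13:21810367-21810918) and H2ac24 (chr13:21833024-21833475) had 0 differences over the 393 coding bases, while H2ac18 (chr3:96245497-96246052) had 34. The H3.3 genes show the same contrast, with capitals where a base differs from H3f3a.
H3f3a: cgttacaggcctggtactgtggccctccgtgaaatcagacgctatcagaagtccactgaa
H3f3c: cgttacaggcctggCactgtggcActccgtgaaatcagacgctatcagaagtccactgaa
H3f3b: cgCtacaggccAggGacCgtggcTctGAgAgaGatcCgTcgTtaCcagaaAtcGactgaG
H3f3c differed from H3f3a at 4 of 411 coding bases and H3f3b at 95. In all, 47 members formed 8 sets of copies linked by shared words, among them 12 H2B genes, 11 H2A genes on chromosome 13, 9 H3 genes on chromosome 13, 6 H4 genes, and the pairs H2ac18 with H2ac19 and H3f3a with H3f3c. Values of single copies within a set are uncertain, so sums over a set are given beside many of them. Counts of members take each copy as a separate gene. The copies of 1 set can thus enter such a count up to 12 times. The share of all genes given beside a count is not adjusted for this.

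Promoters were compared by histone class, and their part in the levels of the genes was not tested. RefSeq promoters (GRCm38, 250 bases before to 50 after the start) were matched for 71 members, with 72 rows. The promoter of H2bc8 (chr13:23571150-23571449, plus strand) is shown with its CCAAT box, octamer and TATA box in capitals on either strand.
H2bc8: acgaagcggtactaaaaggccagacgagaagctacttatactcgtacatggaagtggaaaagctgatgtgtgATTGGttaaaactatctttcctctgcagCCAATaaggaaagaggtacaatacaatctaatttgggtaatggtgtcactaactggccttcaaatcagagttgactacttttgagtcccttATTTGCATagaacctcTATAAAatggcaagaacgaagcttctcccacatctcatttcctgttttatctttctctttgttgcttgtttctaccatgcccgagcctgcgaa
On the opposite strand, nearly the same bases are the promoter of the H2A gene H2ac8 (chr13:23571171-23571470), so both genes start from 1 shared stretch. The octamer ATTTGCAT, searched on both strands, was present in 1.74% of 32851 promoters. Among replication-dependent genes it was present in 40.0% of the H2B promoters (6 of 15) and in 31.2% of the H2A promoters (5 of 16). Where an H2A and an H2B gene share a stretch, as H2ac8 and H2bc8 do, the same motif counts in both classes. The H2A and H2B shares of this and the other motifs are therefore not separate observations. It was present in 0 of the 5 H1, 10 H3 and 12 H4 promoters of replication-dependent genes. CCAAT was present in 37.41% of all promoters and in all replication-dependent H1, H2A, H2B and H3 promoters. Of the replication-dependent H4 promoters 25.0% had it, which were 3 of 12. TATAAA was present in 13.62% of all promoters, and in 80.0%, 62.5%, 46.7%, 40.0% and 66.7% of the replication-dependent H1, H2A, H2B, H3 and H4 promoters. Of the 7 promoters of replacement variants, 1 had the octamer, 5 had CCAAT and 1 had TATAAA.

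Levels are given as CPM, which sets a gene's count against its library total, scaled with TMM across all 47 libraries. The chromosome 13 H2A set made up 6.61% to 63.2% of the summed counts of all members (median 31.4%), and H2az1 21.0% to 56.6% (median 39.3%). The sum of the set ran from 82.6 CPM in splenic pre-cDC1 replicate 3 to 4095 CPM in cultured MDP replicate 1, a 49.6-fold range. Through this range each copy kept nearly the same share of the sum. H2ac23 made up 19.5% to 21.3% (median 20.4%), H2ac24 18.2% to 20.9% and H2ac11 13.2% to 15.3%, and the least abundant copy, H2ac4, 1.72% to 2.69%. H2ac18 took 48.1% to 53.0% of its sum with H2ac19, and H3f3a took 55.9% to 59.5% of its sum with H3f3c. In the H2B set, shares varied more, with H2bc4 at 17.7% to 31.0% of a sum of 18.5 to 239 CPM. All values of the 77 genes were whole counts. Whether the steady shares reflect equal regulation or the way reads were assigned to copies was not tested.

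**Figure D1:**
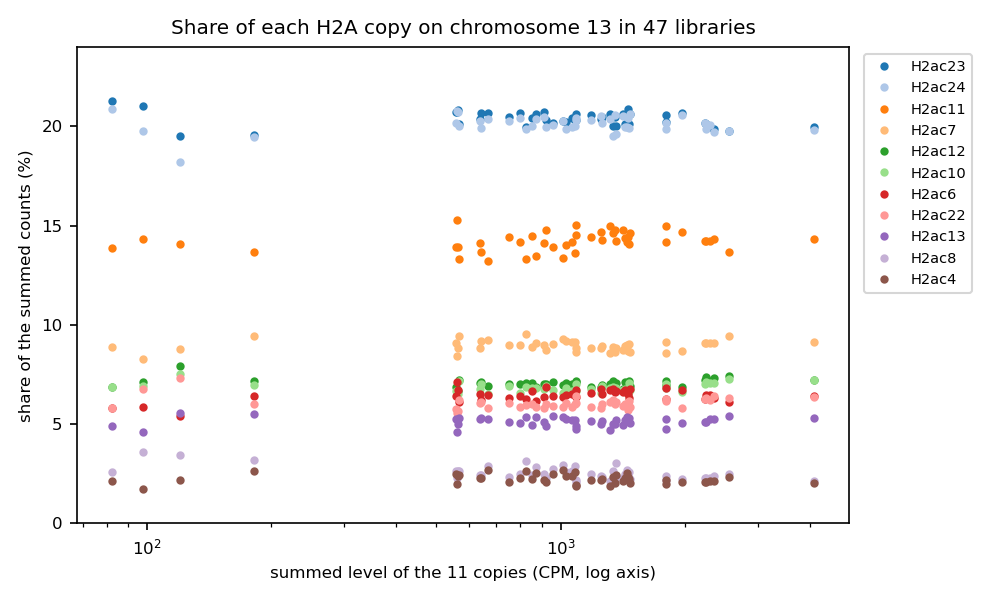
Share of each of the 11 chromosome 13 H2A genes in their summed counts (vertical axis, percent; 1 colour per gene) in each of the 47 libraries, against the summed level (horizontal axis, CPM, log scale). The shares run nearly level while the sum goes from 82.6 to 4095 CPM.

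Per base of transcript the members differ widely, here as the highest count per base in any library. It was 64.0 for H2ac24, 60.7 for H2ac23 and 56.1 for H2az1, against 4.76 for H2az2, 1.06 for H2ax, 1.04 for H1f0 and 0.884 for H3f3b. H3f3b, which encodes H3.3 like H3f3a, had counts of 1578 to 2221 across libraries whose totals differ 2.94-fold, so its counts varied only 1.41-fold. H1f0, the linker histone of quiescent and differentiated cells, had counts of 693 to 2146. When a count barely follows the library total, a shallower library yields a higher CPM. The Spearman correlation of count with library total was 0.24 for H1f0, 0.43 for H3f3b and 0.19 for H3f3a. It was 0.51 for H2ax, whose counts ran from 288 to 1447, and 0.56 for H2az1. The sources used here do not say whether duplicate reads had been removed, and the part of this in the values of these genes was not tested.

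**Figure D2:**
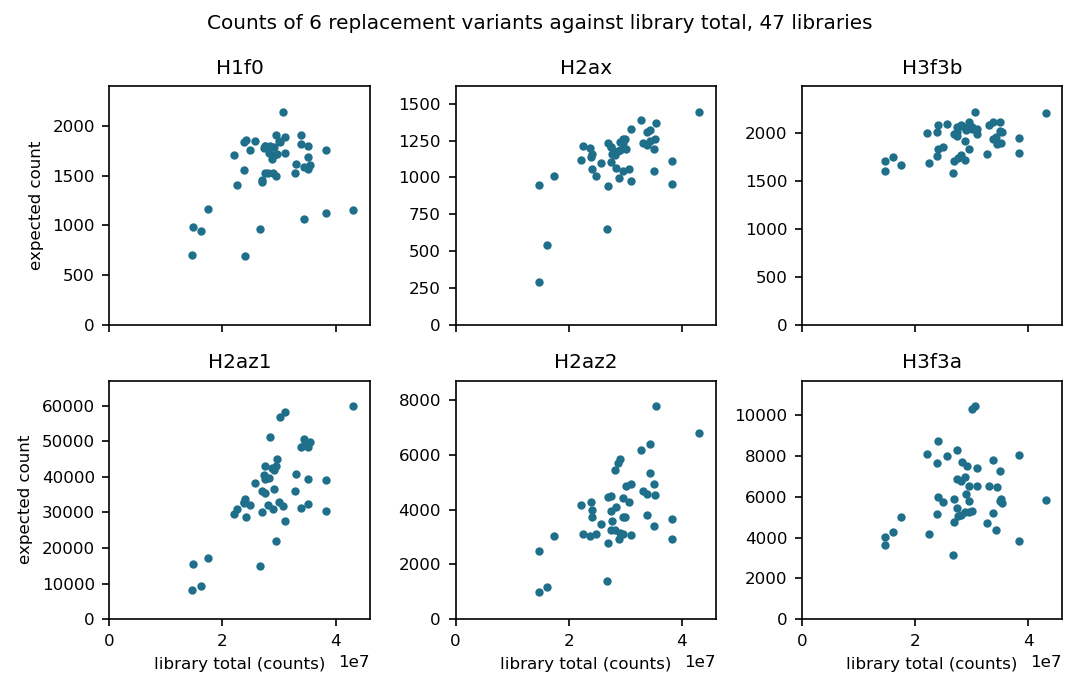
Deposited expected counts of 6 replacement variants (vertical axes, each from 0) against the library total in counts (horizontal axes), 1 point for each of the 47 libraries. H3f3b stays between 1578 and 2221 counts and H1f0 between 693 and 2146, while H2az1 runs from 8264 to 59919.

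At the low end, 3 members, the germline linker genes H1f6, H1f7 and H1f8, had 0 counts in every library, and 4 members stayed under 3 counts everywhere. A floor of 3 counts corresponds to 0.0696 CPM in the deepest and 0.205 CPM in the shallowest library. H1f10, a polyadenylated linker variant, was near this floor in cultured pre-cDC1, with 0.0351, 0.117 and 0.0712 CPM, and reached 1.08, 1.36 and 1.67 CPM in primary MDP. Its changes passed the test in no comparison. The 77 genes together took from 0.111% of all counts in splenic pre-cDC1 replicate 3 to 0.658% in cultured MDP replicate 1.

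Across groups, the chromosome 13 H2A set was highest in cultured progenitors. The sums were 4095, 2233 and 2296 CPM in cultured MDP and 2252, 2551 and 1796 CPM in cultured CDP. Cultured WT pre-cDC1 had 1351, 1459 and 921.8 CPM, and cultured cDC2 641.6, 564.8 and 749.1 CPM. Both progenitor groups lay above all WT pre-cDC1 libraries, and these above all cDC2 libraries, whereas MDP and CDP overlapped. In primary cells the sums were 1433, 1028 and 1968 CPM in MDP and 1361, 1341 and 826.5 CPM in bone marrow pre-cDC1, which overlapped. Splenic pre-cDC1 had 120.0, 98.2 and 82.6 CPM, below every other library, and the 1 library of splenic cDC1 had 181.8 CPM.

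**Figure D3:**
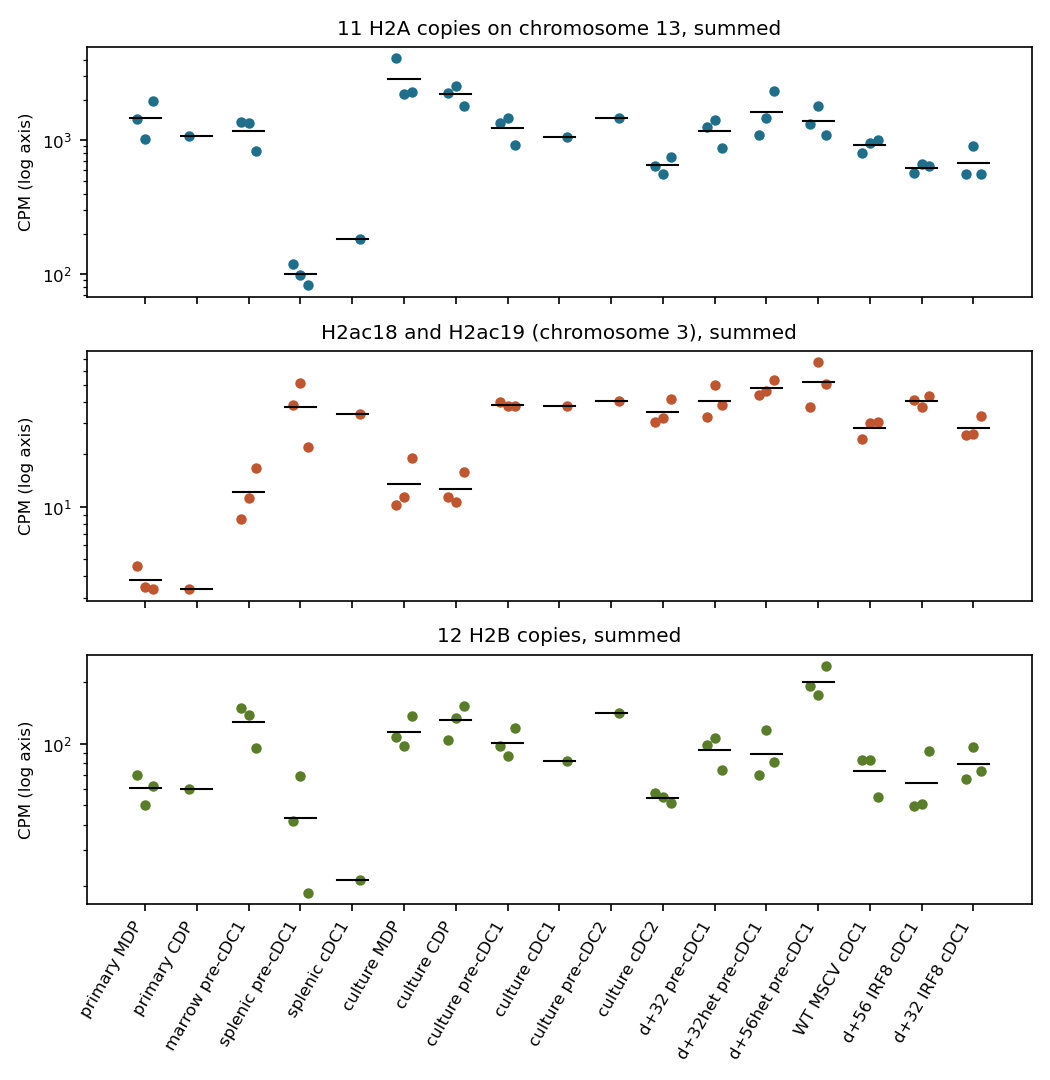
Summed CPM (vertical axes, log scale) of the 11 H2A copies of chromosome 13, of H2ac18 with H2ac19, and of the 12 H2B copies by group, with 1 point per library and the mean as a line, without the 4 libraries whose title and file name conflict. The chromosome 13 H2A copies are lowest in splenic pre-cDC1, at 82.6 to 120.0 CPM, while H2ac18 with H2ac19 is low in primary MDP, at 3.37 to 4.56 CPM.

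The H2A pair on chromosome 3, H2ac18 with H2ac19, followed another order. Its sum was 4.56, 3.48 and 3.37 CPM in primary MDP, 8.48, 11.3 and 16.7 CPM in bone marrow pre-cDC1, and 38.4, 51.1 and 22.1 CPM in splenic pre-cDC1. In culture it was 10.3, 11.3 and 19.1 CPM in MDP and 11.3, 10.7 and 15.8 CPM in CDP, against 39.9, 37.9 and 37.5 CPM in WT pre-cDC1. Neither the primary groups nor cultured CDP and pre-cDC1 overlapped.

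Each comparison below was tested with edgeR's quasi-likelihood F test over all expressed genes, and adjusted p-values (Benjamini-Hochberg, over all genes tested) under 0.05 counted as called. The log2 fold changes (log2FC) are given with their standard errors. From MDP to CDP in culture, 0 of 71 members tested were called (edgeR), beside 1.04% of 13292 genes. Unadjusted p-values under 0.05 were found for 4 members, all higher in CDP, namely H1f0, H2az2, H3f3a and H3f3c, and DESeq2 called 1, H2az2, beside 4.55% of all genes. H2az2, which encodes an H2A.Z protein exchanged into promoter nucleosomes, had 138, 136 and 157 CPM in MDP and 182, 194 and 193 CPM in CDP without overlap (log2FC 0.40 ± 0.09, adjusted p = 0.0637). The median log2FC of the members was -0.06 and that of all genes 0.00.

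From cultured CDP to pre-cDC1, when cells commit to the cDC1 lineage, 5 members rose and 13 fell of 71 tested, beside 23.3% of all genes called (12.1% higher and 11.2% lower). All 13 that fell were H2A genes. These were the 11 copies of the chromosome 13 set, H2ac15 and H2az2. The summed set fell by 0.82 ± 0.24 on the log2 scale (adjusted p = 0.0252). H2ac15 fell by 0.95 ± 0.25 (adjusted p = 0.0158). It lies outside the set by the 50% rule but shares 43.3% of its coding words with H2ac23, so its counts are uncertain as well. H2az2 had 182, 194 and 193 CPM in CDP and 130, 127 and 113 CPM in pre-cDC1, and it fell by 0.62 ± 0.09 (adjusted p = 0.000298). Its paralogue H2az1 showed no call, with 1320, 1451 and 1380 CPM in CDP and 1582, 1593 and 1305 CPM in pre-cDC1, which overlapped.

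The 5 that rose were H2ac18, H2ac19, H2ac20, H2bu2 and H1f2. H2ac18 rose 1.62 ± 0.24 log2 units (adjusted p = 0.00029) and its pair summed 1.61 ± 0.23 (adjusted p = 0.000214). H2bu2, an H2B gene on chromosome 11, had 2.77, 3.35 and 3.40 CPM in CDP and 6.32, 7.01 and 6.41 CPM in pre-cDC1 (log2FC 1.05 ± 0.25, adjusted p = 0.00736). H1f2, an S phase linker histone, had 10.4, 10.1 and 10.5 CPM in CDP and 15.6, 20.8 and 16.8 CPM in pre-cDC1 (log2FC 0.78 ± 0.25, adjusted p = 0.0358). For these 3 genes the groups did not overlap. The number that fell rested on single libraries, at 6 without pre-cDC1 replicate 1, 1 without pre-cDC1 replicate 3, 2 without CDP replicate 1 and 1 without CDP replicate 2, and the H2bu2 call had an adjusted p of 0.311 under the least favourable other setting.

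Genes that act on histones moved in the same comparison, as did markers of other cells: the 5 neutrophil and granule markers summed to 72.8 to 87.2 CPM in CDP and 2.46 to 9.48 CPM in pre-cDC1, with 3 called lower, and their part was not tested. Of a list of 20 genes for histone mRNA synthesis and 3' processing, 4 fell and 0 rose, with a median log2FC of -0.14 beside -0.02 for all genes. Slbp itself had 800, 945 and 771 CPM in CDP and 457, 538 and 451 CPM in pre-cDC1 without overlap (log2FC -0.80, adjusted p = 0.00163). Of 25 histone chaperones and exchange factors, 2 rose and 10 fell, including Nasp, a carrier of H3 and H4, at -0.90. Of 25 S phase genes 19 fell and 0 rose, and of 18 mitosis genes 7 fell and 0 rose. In bulk libraries, fewer cells in S phase and less histone RNA per cell cannot be told apart.

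In the 1 cultured cDC1 library that could be used, against WT pre-cDC1, 0 of 71 members were called by edgeR or DESeq2, beside 2.26% and 9.11% of all genes. Unadjusted p-values under 0.05 were found for 5, all lower: H2az1, H2bc12, H2bc3, H3f3a and H3f3c. The member median was -0.42, beside -0.01 for all genes, and 9 of 25 S phase genes were called lower. The lone cDC1 library is assumed to vary like the other groups.

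Of the 15 comparisons, cultured cDC2 against CDP held the largest number of called members. In cDC2 50 of 71 members fell and 3 rose, beside 16.8% and 16.3% of all genes, and 56 members (78.9%) were lower in every cDC2 library than in every CDP library, as were 24.6% of all genes tested. The member median was -1.50, beside 0.00 for all genes. The count of falls was 3 of 7 H1 genes, 14 of 20 H2A, 14 of 17 H2B, 9 of 15 H3 and 10 of 12 H4. With copies summed, the H2A set of chromosome 13 fell by 1.76 ± 0.25 log2 units (adjusted p = 0.000126), the H2B set by 1.27 ± 0.19 (adjusted p = 0.000259), the chromosome 13 H3 set by 1.38 ± 0.29 (adjusted p = 0.0024) and the H4 set by 1.64 ± 0.27 (adjusted p = 0.000525). In that form 17 features fell and 2 rose, beside 16.8% and 16.2% of all features.

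Single genes show the size of this change. H2bc23 went from 18.9, 19.8 and 23.01 CPM in CDP to 8.22, 6.78 and 6.67 CPM in cDC2, a log2FC of -1.51 ± 0.20 (adjusted p = 0.000101). H1f5, an S phase linker histone, went from 8.41, 7.38 and 6.90 CPM to 3.50, 2.38 and 2.20 CPM (log2FC -1.49 ± 0.28, adjusted p = 0.00116). H1f4, another replication-dependent linker histone, went from 13.3, 12.5 and 8.98 CPM to 6.04, 6.75 and 7.98 CPM (log2FC -0.74 ± 0.20, adjusted p = 0.0106). H4c9 went from 5.20, 4.37 and 6.96 CPM to 1.60, 1.54 and 2.68 CPM (log2FC -1.50 ± 0.34, adjusted p = 0.00453). None of these genes overlapped between CDP and cDC2.

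Among the replacement variants, both H2A.Z genes fell. H2az2 went from 182, 194 and 193 CPM to 105, 103 and 107 CPM (log2FC -0.85 ± 0.09, adjusted p = 1.61e-05), and H2az1 from 1320, 1451 and 1380 CPM to 1123, 923.4 and 751.5 CPM (log2FC -0.57 ± 0.13, adjusted p = 0.00422). Neither gene overlapped between the groups. H3f3a, H3f3b, H1f0, H2aj and H2ax showed no call, with log2FC of -0.18 ± 0.09, -0.06 ± 0.11, 0.01 ± 0.11, -0.14 ± 0.11 and -0.25 ± 0.11. The members that rose were H2ac18 (1.52 ± 0.24, adjusted p = 0.000306), H2ac19 (1.40 ± 0.24, adjusted p = 0.000573) and H2bu2 (0.98 ± 0.25, adjusted p = 0.00766).

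All 25 S phase genes fell in cDC2, with Mcm7, a subunit of the replicative helicase, at -2.02, and 14 of 18 mitosis genes fell. Slbp had 369, 317 and 242 CPM, below all CDP libraries (log2FC -1.44, adjusted p = 1.25e-05), and 11 of 20 processing genes and 17 of 25 chaperone genes fell with none rising. Of 11 quiescence and cell cycle exit genes, 5 rose and 1 fell. All 6 cDC2 markers rose, and so did all 5 mast cell and basophil markers, which summed to 2.015 to 4.62 CPM in CDP and 95.7 to 236 CPM in cDC2. Of 5 neutrophil and granule markers 2 rose and 3 fell, with sums of 72.8 to 87.2 CPM in CDP and 19.9 to 30.7 CPM in cDC2. The part of these markers in the histone values was not tested.

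**Figure D4:**
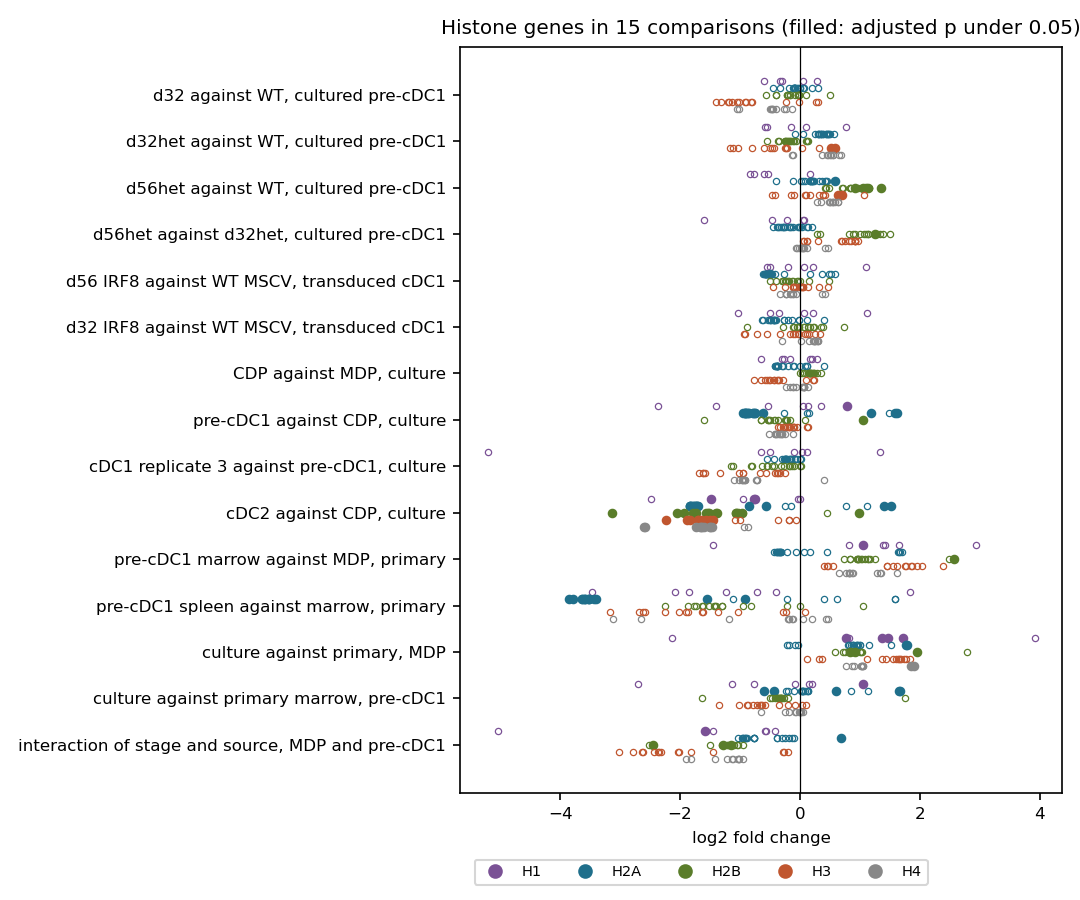
Log2 fold change of each tested histone gene (horizontal axis) in each of the 15 comparisons (rows), coloured by class, with called genes filled and others open. In cDC2 against CDP the members have a median of -1.50, and in splenic against bone marrow pre-cDC1 the filled H2A genes of the chromosome 13 set lie near -3.58, the log2FC of their sum.

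In primary bone marrow, pre-cDC1 differed from MDP by 2 called members of 71, both higher, beside 5.61% of genes called higher. H2bc21, a chromosome 3 H2B gene in whose annotated transcripts no stem-loop was found, had 2.84, 1.71 and 2.46 CPM in MDP and 15.9, 11.9 and 14.8 CPM in pre-cDC1 without overlap (log2FC 2.58 ± 0.48, adjusted p = 0.0156). H1f0 had 25.9, 28.8 and 25.1 CPM in MDP and 58.1, 60.1 and 48.8 CPM in pre-cDC1, also without overlap (log2FC 1.05 ± 0.19, adjusted p = 0.0135). The unscaled counts of H1f0, however, overlapped, at 1150, 1060 and 693 in MDP and 980, 1165 and 1531 in pre-cDC1. The pair H2ac18 and H2ac19 rose when summed (log2FC 1.66 ± 0.39, adjusted p = 0.0359), whereas H2ac18 alone had an adjusted p of 0.0618. The unscaled counts of H2ac18 overlapped too, at 101, 64 and 46 in MDP and 72, 107 and 260 in pre-cDC1.

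The members' median log2FC in this comparison was 0.97, beside 0.00 for all genes. The H2A class had a median of -0.316 and the other classes 0.856 to 1.615. With copies counted singly, 44 of 71 members (62.0%) were higher in every pre-cDC1 library than in every MDP library. Lower in the same way were 2, beside 21.7% and 20.6% of all genes tested. All members summed to 3464, 3004 and 4054 CPM in MDP and 3419, 3387 and 2854 CPM in pre-cDC1, which overlapped. Library totals were 43084069, 34407548 and 24033885 in MDP and 14761801, 17475507 and 32768182 in pre-cDC1. The part of depth in these values was not tested. The count of calls depended on the libraries that shared the fit. It was 12 with only MDP and bone marrow pre-cDC1 fitted, and 20 higher with 1 lower (H2az1) with all libraries in 1 fit. Without MDP replicate 1 or 3, or pre-cDC1 replicate 1 or 2, 0 were called, and without MDP replicate 2 there was 1. Of 25 S phase genes 1 fell and 0 rose, and of 11 quiescence genes 5 rose.

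Splenic pre-cDC1 had lower levels than bone marrow pre-cDC1 of the chromosome 13 H2A set and of both H2A.Z genes. Of 71 members 14 fell and 0 rose, beside 1.28% of genes called lower, and all 14 were H2A genes: the 11 copies of the chromosome 13 set, H2ac15, H2az2 and H2az1. H2ac23 had 272, 268 and 165 CPM in bone marrow and 23.4, 20.6 and 17.6 CPM in spleen (log2FC -3.54 ± 0.32, adjusted p = 0.00296). The summed set fell by 3.58 ± 0.33 log2 units (adjusted p = 0.00378). H2az2 went from 147, 156 and 197 CPM to 57.6, 61.5 and 54.3 CPM (log2FC -1.55 ± 0.17, adjusted p = 0.00458), and H2az1 from 914.6, 883.9 and 1146 CPM to 489.9, 494.5 and 588.5 CPM (log2FC -0.92 ± 0.18, adjusted p = 0.0426). The groups overlapped for none of these genes, and leaving out any 1 library left 13 to 16 members called lower.

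Among the other members no difference was called. The H2B set had 149.3, 138.1 and 94.7 CPM in bone marrow and 41.6, 69.3 and 18.5 CPM in spleen, without overlap but without a call. H2ac18 was higher in spleen, at 18.7, 25.4 and 11.3 CPM against 4.27, 5.52 and 8.28 CPM, also without a call (log2FC 1.58 ± 0.44, adjusted p = 0.162). It was called higher, with H2ac19, when splenic replicate 3 was left out (log2FC 1.82, adjusted p = 0.0382). H2ax had 56.3, 52.1 and 44.2 CPM in bone marrow and 17.1, 28.5 and 25.4 CPM in spleen (log2FC -1.12 ± 0.25, adjusted p = 0.0767). The member median was -1.44, beside -0.02 for all genes, and that of the H4 class was -0.151.

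In the same splenic libraries 8 of 18 mitosis genes and 4 of 25 S phase genes fell with none rising, and the list medians were -2.76 and -1.38. The mitosis genes summed to 207 to 450 CPM in splenic and 2286 to 2670 CPM in bone marrow pre-cDC1. The 7 cDC1 markers summed to 641.0 to 1448 CPM in spleen and 375 to 415 CPM in bone marrow, with 1 called higher and Clec9a at 163 to 262 CPM and 169 to 234 CPM. The 5 neutrophil and granule markers summed to 3.13 to 25.8 CPM in spleen and 62.75 to 116 CPM in bone marrow, with 1 called lower. The 4 monocyte and macrophage markers summed to 97.9 to 222 CPM and 343 to 636 CPM, also with 1 called lower. The part of these differences in the histone values was not tested.

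Culture was set against the primary source at each stage. Cultured MDP were higher in 11 of 70 members and lower in 0, beside 5.38% of genes called higher. With copies counted singly, 58 members (82.9%) were higher in every cultured than in every primary library, as were 17.8% of all genes tested. Summed, the H2B set had 108.2, 97.2 and 136.6 CPM in culture and 70.0, 50.2 and 62.3 CPM in primary MDP. H3f3a with H3f3c overlapped, at 360.9, 333.3 and 370.1 CPM and 227.3, 205.0 and 381.1 CPM. H2bc21 had 9.56, 9.15 and 9.47 CPM in culture against 2.84, 1.71 and 2.46 CPM (log2FC 1.95 ± 0.25, adjusted p = 0.000838). H1f0 (0.77 ± 0.13, adjusted p = 0.00384) and H2ac18 (1.77 ± 0.31, adjusted p = 0.00576) were also higher. So were H1f2 (1.48 ± 0.33, adjusted p = 0.0212), H1f3 (1.72 ± 0.37, adjusted p = 0.0166) and H1f4 (1.37 ± 0.33, adjusted p = 0.0304), the other called members being H2ac19, H4c17, H4c18, H2bc23 and H2bc4. The member median was 0.99, beside 0.00 for all genes, and S phase genes gave 1 call higher of 25. The count was 7 and 4 without cultured replicate 2 and 3 and 4 without primary replicate 2.

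Cultured WT pre-cDC1 against bone marrow pre-cDC1 gave 4 members higher and 2 lower of 70, beside 21.9% of all genes called, and the split was 3 and 3 when scaled by library totals alone and 4 and 1 with DESeq2 size factors. H2ac18 was higher in culture, at 19.9, 18.5 and 19.1 CPM against 4.27, 5.52 and 8.28 CPM (log2FC 1.67 ± 0.31, adjusted p = 0.00326). H2az1 was higher, at 1582, 1593 and 1305 CPM against 914.6, 883.9 and 1146 CPM (log2FC 0.61 ± 0.12, adjusted p = 0.00545). H2ac19 and H1f2 were the other members that were higher. H2az2 (-0.43 ± 0.13, adjusted p = 0.0417) and H2aj (-0.60 ± 0.18, adjusted p = 0.0384) were lower, and H1f2 (1.06 ± 0.33, adjusted p = 0.0417), H2aj and H2az2 lost their calls in 5 or 6 of the 6 fits that left out a library. The count was 3 without cultured replicate 1 or 3 or primary replicate 2. In the same comparison 17 of 18 mitosis genes were lower in culture, while S phase genes gave 1 call in each direction. Markers of cell type moved too: 6 of 7 cDC1 markers were higher in culture, at sums of 1540 to 1886 CPM against 375 to 415 CPM, and 6 of 6 cDC2 markers lower, at 499 to 657 CPM against 1634 to 2020.0 CPM. Of 5 neutrophil and granule markers 3 were lower, at sums of 2.46 to 9.48 CPM against 62.75 to 116 CPM. All 3 erythroid markers tested were lower, with all 4 of the list at 0 in culture and sums of 6.55 to 81.3 CPM in bone marrow. The part of these markers in the histone values was not tested.

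The step from MDP to pre-cDC1 itself differed between culture and bone marrow for 5 of 70 members in the test of the interaction, beside 11.4% of all genes. The difference was negative, that is a smaller rise or larger fall in culture, for H2bc21 (-2.45 ± 0.34, adjusted p = 0.00214), H1f5 (-1.58 ± 0.38, adjusted p = 0.0223), H2bc23 (-1.28 ± 0.30, adjusted p = 0.0206) and H2bc4 (-1.15 ± 0.32, adjusted p = 0.0407). It was positive for H2az1 (0.69 ± 0.17, adjusted p = 0.028). Levels of H2bc21 went from 9.56, 9.15 and 9.47 CPM to 12.04, 7.91 and 10.1 CPM in culture and overlapped, while they did not in bone marrow. The number of calls rose to 10 lower with 1 higher without primary MDP replicate 3 and to 15 lower with 1 higher without bone marrow pre-cDC1 replicate 3. It fell to 3 without cultured MDP replicate 1 or 2, to 2 without cultured MDP replicate 3, cultured pre-cDC1 replicate 1 or 2, primary MDP replicate 2 or bone marrow pre-cDC1 replicate 2, and to 1 without bone marrow pre-cDC1 replicate 1, and was 7 without primary MDP replicate 1.

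The Irf8 enhancer genotypes were compared as cultured pre-cDC1, and the 3 comparisons with WT share its libraries. As a check of the labels, mean Irf8 was 3420 CPM in WT, 493 CPM in d+32, 1226 CPM in d+32het and 984 CPM in d+56het. In d+32, 0 of 68 members tested were called by edgeR, beside 4.52% of 11604 genes. Unadjusted p-values under 0.05 were found for 4 members, H3f3a and H3f3c higher and H3c3 and H4c18 lower, and DESeq2 called 1, H3c3 (lower), beside 9.62% of all genes. The member median was -0.18, beside 0.00 for all genes.

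In d+32het 2 members rose and 0 fell, beside 2.31% of genes called higher, and both belong to the H3.3 pair. H3f3a (chr1:180802560-180813605) had 230, 214 and 218 CPM in WT and 300, 348 and 305 CPM in d+32het without overlap (log2FC 0.52 ± 0.10, adjusted p = 0.0224). Its processed copy H3f3c, with which it shares most of its coding sequence as printed above, had a log2FC of 0.58 ± 0.12 (adjusted p = 0.0272). With the pair summed the log2FC was 0.55 ± 0.11 (adjusted p = 0.0227). No member was called without d+32het replicate 2 or 3 or without any 1 of the WT libraries, with all libraries in 1 fit (adjusted p = 0.160 for H3f3a by edgeR) or with only the groups compared (0.0619).

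In d+56het 8 members rose and 0 fell of 68, beside 6.12% of genes called higher. The H3.3 pair rose here as well. H3f3a had 340, 343 and 336 CPM, above all WT libraries (log2FC 0.63 ± 0.10, adjusted p = 0.00305), and with H3f3c summed the log2FC was 0.66 ± 0.11 (adjusted p = 0.00307). H3f3b, the other H3.3 gene, had 73.2, 77.0 and 72.2 CPM in WT and 81.0, 84.7 and 71.5 CPM in d+56het, which overlapped (log2FC 0.10 ± 0.10, adjusted p = 0.572). H2aj, an H2A variant with a polyadenylated mRNA, had 21.2, 19.2 and 23 CPM in WT and 36.8, 31.9 and 26.3 CPM in d+56het without overlap (log2FC 0.59 ± 0.15, adjusted p = 0.0264).

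The other 5 that rose were copies of the H2B set. H2bc4 had 25.1, 22.8 and 30.3 CPM in WT and 52.6, 46.1 and 67.8 CPM in d+56het (log2FC 1.10 ± 0.23, adjusted p = 0.0109). The set summed to 97.1, 87.2 and 118.8 CPM in WT and 190.9, 172.9 and 239.1 CPM in d+56het without overlap (log2FC 1.00 ± 0.22, adjusted p = 0.0145). H2bc23 (0.92 ± 0.22, adjusted p = 0.0222), H2bc8 (1.14 ± 0.30, adjusted p = 0.0333), whose promoter is printed above, H2bc7 (1.36 ± 0.37, adjusted p = 0.0397) and H2bc6 (1.05 ± 0.30, adjusted p = 0.046) completed the group. The chromosome 13 H2A set overlapped, with 1320, 1793 and 1090 CPM in d+56het. The member median was 0.42, beside 0.01 for all genes, and 30 members (44.1%) were higher in every d+56het than in every WT library, with 4 lower, beside 15.95% and 18.5% of all genes tested.

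The H3f3a and H3f3c calls held in all 6 fits that left out a library and the H2bc4 call in 5, while the number of calls was 4 without d+56het replicate 1 or 3 and 3, 2 and 5 without WT replicate 1, 2 and 3. With the replicate number as a block 5 were called. While these histone genes rose, 11 of 25 S phase genes fell and 0 rose, among them Mcm6 (-0.93, adjusted p = 0.000165) and Uhrf1 (-1.08), a factor that maintains DNA methylation at replication. Of 25 chaperone genes 6 fell and 0 rose, and of 18 mitosis genes 1 fell. Slbp had 426, 314 and 335 CPM, below the 457, 538 and 451 CPM of WT, without a call.

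**Figure D5:**
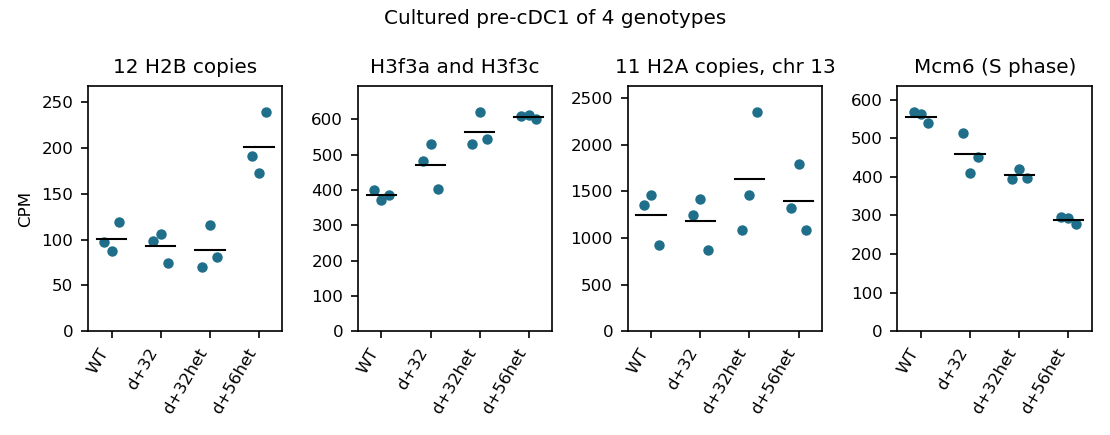
CPM (vertical axes, from 0) of the 12 H2B copies summed, of H3f3a with H3f3c summed, of the 11 chromosome 13 H2A copies summed and of the S phase gene Mcm6 in cultured pre-cDC1 of each genotype, with 1 point per library and the mean as a line. In d+56het the H2B copies lie at 173 to 239 CPM, above the WT libraries at 87.2 to 118.8 CPM.

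Markers of cell identity moved with the same genotypes. The 7 cDC1 markers summed to 1540 to 1886 CPM in WT, 283 to 328 CPM in d+32, 390 to 584 CPM in d+32het and 257 to 300 CPM in d+56het, where Xcr1 was at 2.45 to 2.84 CPM. The 5 pDC (plasmacytoid DC) markers summed to 294 to 405 CPM in WT and 1834 to 2742 CPM in d+56het, and the 6 cDC2 markers to 499 to 657 CPM and 2668 to 3373 CPM. The libraries labelled pre-cDC1 thus differ from WT in markers of cell type as well, and the part of this in the histone values was not tested.

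Set directly against d+32het, d+56het had 1 member called, beside 0.103% of genes called higher. It was H2bc4, with 18.4, 30.4 and 21.7 CPM in d+32het (log2FC 1.26 ± 0.23, adjusted p = 0.0484). The summed H2B set had 70.1, 116.1 and 81.5 CPM in d+32het and did not overlap with d+56het (adjusted p = 0.053). DESeq2 called 13 members higher, of which all were H2B genes, and 1 lower, H1f5, beside 2.38% and 3.59% of all genes it tested. H3f3a was not called (log2FC 0.11 ± 0.10, adjusted p = 0.719). The H2bc4 call was lost when any 1 library other than d+32het replicate 2 was left out. It was also lost with DESeq2 size factors (adjusted p = 0.0523), no filter on low counts (0.05165), all libraries in 1 edgeR fit (0.0736), the replicate number as a block (0.0953) and only the groups compared (0.371).

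In rescued cDC1 the comparison of an IRF8 virus in mutant cells with the MSCV virus in WT cells changes the genotype and the virus together, which cannot be told apart. Mean Irf8 was 3576 CPM in WT, 3622 CPM in d+56 with IRF8 and 1338 CPM in d+32 with IRF8. In d+56 with IRF8, 1 member fell and 0 rose of 68, beside 0.43% of genes called lower. It was H2az2, at 153, 163 and 136 CPM in WT and 108, 109 and 103 CPM in d+56 with IRF8 without overlap (log2FC -0.51 ± 0.09, adjusted p = 0.0323). The H2az2 call was lost when any library except WT replicate 3 was left out, with all libraries in 1 fit (adjusted p = 0.0755 by edgeR), with only the groups compared (0.0653) and with the replicate number as a block (0.0702), under which H2az1 was called instead (0.0371). H2az1 had 1135, 1175 and 991.7 CPM against 1491, 1546 and 1353 CPM, also without overlap (log2FC -0.42 ± 0.10, adjusted p = 0.0777). The H2A set of chromosome 13 had 567.7, 666.5 and 640.1 CPM against 798.7, 956.9 and 1013 CPM, without overlap and without a call.

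In d+32 with IRF8, 0 of 68 members were called by edgeR, beside 2.07% of all genes. Unadjusted p-values under 0.05 were found for 12 members, 2 higher and 10 lower, and DESeq2 called 4, H2aj higher and H1f4, H1f5 and H2az2 lower, beside 8.96% of all genes. H2az2 had 122, 128 and 127 CPM, below all WT libraries (log2FC -0.27 ± 0.09, adjusted p = 0.163). Without d+32 IRF8 replicate 2, whose H2A set stood at 911.7 CPM beside 557.4 and 563.3 CPM, edgeR called 4 H2A copies lower, H2ac7, H2ac10, H2ac12 and H2ac22. H3f3a, which was higher in d+32het and d+56het pre-cDC1, had 201, 197 and 192 CPM in WT, 194, 185 and 177 CPM in d+56 with IRF8 and 191, 216 and 180 CPM in d+32 with IRF8. All 3 groups overlapped, and no difference was called (adjusted p = 0.728 and 0.964).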

How the data were processed

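RNA sequencing was measured in 47 libraries of 17 groups, grouped and numbered as their titles say. Per the file headers, the authors deposited expected counts per gene as RSEM writes them. The submitters' processing notes list, with no roles, the builds mm10 and GRCm38 beside RSEM 1.3.3, STAR 2.7.7a and Picard 2.25.0. The annotation and any removal of duplicates are not given in the sources used here. Library totals ran from 14660655 to 43084069 (median 28884353), and neither kit marks strand or adds molecular identifiers. No pair of replicates agreed within sampling noise (lowest chi-square per degree of freedom 18.4).

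Expected counts were rounded and fitted over all genes with edgeR 4.0.16 (R 4.3.3; TMM, its default low-count filter, quasi-likelihood F test, Benjamini-Hochberg, threshold 0.05), by families of related groups with the group alone in the model. The families held 12 pre-cDC1 libraries of 4 genotypes, 9 transduced cDC1, 17 WT cultured, 11 primary, and 12 MDP and pre-cDC1 libraries of both sources. Standard errors were derived from the F statistic, as the size of the log2 fold change over the root of F. All adjusted p-values are from edgeR unless DESeq2 1.42.0 is named. Copies were chained into sets through pairs that share at least 50% of the 50-base coding words of either gene. Some pairs within a set therefore share less, such as H2bc11 with H2bc6 at 20.2%. The 47 copies then became 8 summed features, which left 38 features tested in place of the members.

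Alternatives were DESeq2, DESeq2 size factors in edgeR, library totals alone, no low-count filter, all libraries in 1 fit, a fit of the compared groups alone, the replicate number as a block, use of the libraries with conflicting names under the titles, and each library left out. Summing the copies was added after seeing the data. Genes named were the replacement variants, up to 6 called members with the smallest adjusted p in each direction, and the 3 members with the highest level in each class, with others where a sentence needed them, chosen after their values were seen. The members and the gene lists were chosen with earlier results of these data known. Some marker lists are not reported here.

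The fits were tested on simulated counts. These were drawn with the same mean in all groups for unchanged genes and with the trended spread, without each gene's own spread. For d+32 against WT, 19 of 50 genes raised 2-fold and 43 of 50 raised 4-fold were called among 11604 genes. Of genes lowered to 0.5-fold and 0.25-fold, 13 of 50 and 37 of 50 were called. For primary bone marrow pre-cDC1 against MDP, raised genes gave 0 of 50 and 16 of 50 among 13161 genes, and lowered genes 1 of 50 and 15 of 50. False calls among unchanged genes numbered 8 for d+32 against WT and 1 for bone marrow pre-cDC1 against MDP. They numbered 6, 9 and 12 for d+56 with IRF8, cultured CDP and cultured against primary MDP. Genes with low mean levels, as many single H3 and H4 genes have, were not among those changed, so their recovery was not simulated.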

Additional observations from a re-analysis of the deposited data

Results flagged for a closer look

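The step from MDP to pre-cDC1 differed between Flt3L culture and bone marrow for 5 of 70 histone genes, beside 11.4% of 12043 genes tested. The test was edgeR's test of the interaction, with adjustment over all genes. The values are the log2 fold change in culture minus that in bone marrow. H2bc21 stood at -2.45, with 3 of 3 bone marrow pre-cDC1 libraries above all primary MDP libraries and overlapping groups in culture. H1f5 stood at -1.58, with 5.37, 4.10 and 5.39 CPM in primary MDP, 10.02, 8.87 and 7.74 CPM in bone marrow pre-cDC1, 9.62, 8.42 and 9.15 CPM in cultured MDP and 5.37, 6.66 and 3.597 CPM in cultured pre-cDC1, so that it was higher in all bone marrow pre-cDC1 libraries and lower in all cultured ones. H2bc23 stood at -1.28, with 9.48, 8.04 and 10.1 CPM and 21.5, 19.1 and 14.1 CPM in bone marrow, and 16.3, 16.0 and 22.0 CPM and 13.8, 11.9 and 16.8 CPM in culture, where the groups overlapped. H2bc4 stood at -1.15, with 17.4, 12.2 and 13.2 CPM and 36.2, 38.0 and 23.6 CPM in bone marrow, and 24.1, 22.2 and 32.5 CPM and 25.1, 22.8 and 30.3 CPM in culture. H2az1 stood at 0.69, lower in all bone marrow pre-cDC1 libraries than in primary MDP and overlapping in culture. H2bc23 and H2bc4 belong to the H2B set, whose sum gave -1.19 ± 0.29 (adjusted p = 0.0256). No group has more than 3 libraries, so none was searched for a single outlying library.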

How the results depend on the processing

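No result turned its direction under any setting. Of 783 values of named genes under the alternatives, 252 stayed on their side of the threshold and 108 fell short of it in fits that left out a library, and 382 stayed and 41 fell short under the other settings. With copies summed, the calls numbered 1 in d+32het, 3 in d+56het, 0 in d+56het against d+32het, 7 in cultured pre-cDC1, 19 in cDC2 and 4 in spleen, where fewer features were tested. DESeq2 called 1 member in d+32, 17 in d+56het, 14 in d+56het against d+32het, 3 and 4 in d+56 and d+32 with IRF8, 1 in CDP, 9 in bone marrow pre-cDC1, 26 in spleen, 46 in cultured against primary MDP and 28 in the interaction. All libraries in 1 fit gave 0 in d+32het, 4 in d+56het, 0 in d+56het against d+32het, 0 in d+56 with IRF8, 9 in cultured pre-cDC1, 21 in bone marrow pre-cDC1, 36 in spleen and 17 in cultured MDP. Only the groups compared gave 0 in d+32het, 0 in d+56het against d+32het, 0 in d+56 with IRF8, 12 in bone marrow pre-cDC1 and 4 in cultured MDP. DESeq2 size factors, and no filter on low counts, gave 0 in d+56het against d+32het. The cause was not tested. These counts stand without the share of all genes called under each setting, so a larger count is not a stronger result about histone genes. DESeq2 called 9.62% of all genes in d+32, beside 4.52% by edgeR. It called 8.96% in d+32 with IRF8 and 4.55% in CDP, beside 2.07% and 1.04% by edgeR. With the replicate number as a block, 5 members were called in d+56het, 0 in d+56het against d+32het, 1 in bone marrow pre-cDC1, 3 in cultured against bone marrow pre-cDC1 and 3 in the interaction. Replicate numbers are not a pairing in the labels. Deviations of libraries with the same number had correlations from -0.288 to 0.273, with medians by family from -0.08 to 0.017. For replicate 3 the correlation was 0.273 between bone marrow and splenic pre-cDC1 and 0.192 between cultured MDP and CDP. It was -0.288 between primary MDP and bone marrow pre-cDC1. Whether the libraries numbered 3 share a batch is not given in the labels and was not tested.

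The counts with 1 library left out also stand without the share of all genes called. Leaving out 1 library gave 0 to 0 calls in d+32 and 0 to 2 in d+32het. It gave 2 to 6 in d+56het, 0 to 1 in d+56het against d+32het, 0 to 1 and 0 to 4 in d+56 and d+32 with IRF8, 0 to 0 in CDP and in cDC1, 5 to 17 in cultured pre-cDC1, and 40 to 51 in cDC2. It gave 0 to 2 in bone marrow pre-cDC1, 13 to 18 in spleen, 4 to 12 in cultured MDP, 3 to 4 in cultured against bone marrow pre-cDC1 and 1 to 16 in the interaction. Scaling by library totals alone moved the median log2 fold change of all genes to 0.13 in d+56het, -0.15 in cultured pre-cDC1, -0.20 in cultured against bone marrow pre-cDC1 and -0.22 in the interaction. A gene with few counts cannot show small changes: a floor of 3 counts is 0.0696 to 0.205 CPM, which covers counting error only.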

Other observations

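Some libraries stand in no comparison and are given as values. The 1 primary CDP library had 1085 CPM for the chromosome 13 H2A set, 60.04 CPM for the H2B set, 3.39 CPM for H2ac18 with H2ac19, 226 CPM for H2az2 and 10.1 CPM for H2bc21. It thus lay within the range of primary MDP for the H2A and H2B sets and for H2ac18 with H2ac19, and above all primary MDP and bone marrow pre-cDC1 libraries for H2az2. The 1 splenic cDC1 library had 181.8, 21.4 and 33.9 CPM for the H2A set, the H2B set and H2ac18 with H2ac19, and 88.5 CPM for H2az2. The 1 cultured pre-cDC2 library with undisputed labels had 1474 CPM for the H2A set, 141.8 CPM for the H2B set, 40.4 CPM for H2ac18 with H2ac19 and 2010.0 CPM for H2az1.

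In 4 libraries the title and the file name disagree on the cell type. Those titled cultured cDC1 had 1257 and 1445 CPM for the chromosome 13 H2A set and 153.8 and 198.4 CPM for the H2B set. Those titled cultured pre-cDC2 had 854.7 and 1184 CPM for the H2A set and 74.1 and 65.6 CPM for the H2B set. Replicate 3 of cultured cDC1 had 1065 and 81.9 CPM for the same sets.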
